A study of Mus musculus with 6 samples.

Results

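The genes that encode the proteins of the cytosolic ribosome were followed through a table of poly(A) RNA from mouse retinal pigment epithelium and choroid (RPE/choroid). The members were chosen by symbol, as the Rpl and Rps genes together with Rplp0, Rplp1, Rplp2, Rpsa and Fau, without symbols of numbered pseudogenes and without the S6 kinases. Of 33924 genes in all, 85 fit this rule, and 83 of them had a mean normalised count of at least 100. Of these 83 genes, 45 encode core proteins of the large (60S) subunit, 32 encode core proteins of the small (40S) subunit, and 6 are paralogs, additional genes that resemble a core gene. Among the paralogs Rps4y2 is annotated as a transcribed processed pseudogene with no coding sequence. The values just inside the minimum of 100 were 197 for Rps29 and 278 for Rpl28. Just outside it lay the paralogs Rpl39l, with a mean of 63.1, and Rpl10l, which was listed at 0. The core gene Rpl41 was not analysed here.

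The ribosome is built from ribosomal RNA and a fixed set of proteins, and nearly every one of these proteins is present as a single copy per ribosome. Cells keep the supply of the proteins in step with each other, and much of that control acts on translation through a run of pyrimidines at the very start of the mRNA, the TOP motif. Ribosomal protein mRNAs are abundant and short, and mammalian genomes hold a large number of processed pseudogenes copied from them, so that a short sequencing read from such an mRNA can fit several places in the genome. Retinal pigment epithelium (RPE) is the pigmented layer behind the photoreceptors, and the choroid is the vascular layer next to it.

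The samples came from C57BL/6J mice, labelled male, with 3 young mice aged 1 to 2 months and 3 aged mice of 20 to 24 months by title (22 to 24 months in the age field of the labels). The paper instead gives an older age range for its young mice and describes mice of both sexes. No transgene or drug was used, and both eyes of a mouse went into 1 sample. The value used for each gene was the mean normalised count that the authors computed over all 6 libraries, young and aged together. No value per library was used, so the spread between mice is not known for any value given here, the young and aged groups were not compared, and no test was made. The values describe this tissue as sampled, in which fewer cells of a type and less RNA per cell cannot be told apart.

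The tissue label was checked against markers. Levels between genes were compared per length, as the mean normalised count per kilobase of the principal transcript. They were scaled so that all genes with a known length sum to 1000000, and "level" below always has this meaning. This takes the means as counts that the authors had not already divided by length, which could not be tested. According to the paper's methods, Sailfish gave TPM, a measure scaled by transcript length, which was then turned into normalised counts. If the means kept that scaling, the levels here would be divided by length again. The RPE genes Ttr (level 14336), Rpe65 (2615), Rlbp1 (2049), Rdh5 (958) and Lrat (407) were high, whereas Best1 was at 1.68. The 4 melanocyte markers, pigment genes that the RPE expresses too, had levels from 183 to 4991. Genes of other cells were also present. Of the red cell markers, 2 were in the table, with Hba-a1 at 2315 and Alas2 at 33.4. The 4 rod photoreceptor markers had levels from 259 to 1291, the 3 skeletal muscle markers from 348 to 1198, the 4 endothelial markers from 7.67 to 81.6, and the 3 macrophage markers in the table from 52.0 to 541. The share of ribosomal protein RNA that came from each of these cell types was not tested.

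The 83 genes together held 1.99% of all mean normalised counts. The 60S core genes contributed 1.05%, the 40S core genes 0.887% and the paralogs 0.0504%. On the level scale, which takes the shortness of these mRNAs into account, the same genes held 3.75% of the total. The median level of the 77 core genes was 278, with quartiles at 156 and 595. This lies well above the median of 16.2 over the 14112 genes with a mean of at least 100. The subunits had similar levels, with a median level of 275 for the 60S genes and 313 for the 40S genes and with quartile ranges that overlapped (156 to 561 and 163 to 653).

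Within the core set the levels were far apart. The highest was Rplp1, a protein of the ribosomal stalk, at 2553. It was followed by Rps14 (1757), Rps21 (1744), the X-linked Rps4x (1527), Rpl7 (1496), Rps9 (1484), Rpl13a (1303), Rpl8 (1297) and Rpl26 (1191). The lowest core gene was Rpl28, at 10.7. Next came Rps29 (21.6), Rps27 (35.6), Rpl17 (50.0), Rpl36a (52.4), Rpl11 (64.1), Rps16 (67.1) and Rpl27 (68.5), and the paralogs Rpl3l (31.6) and Rps4y2 (34.8) fell in the same range. From Rpl28 to Rplp1 the levels spanned a ratio of 238, and 36 of the 77 core genes lay within 2-fold of the core median. For Rps15a (95.3) and Rps20 (184), the principal transcripts were 5179 and 3706 bases long, against a median of 886 bases, which lowers their level per length.

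**Figure D1:**
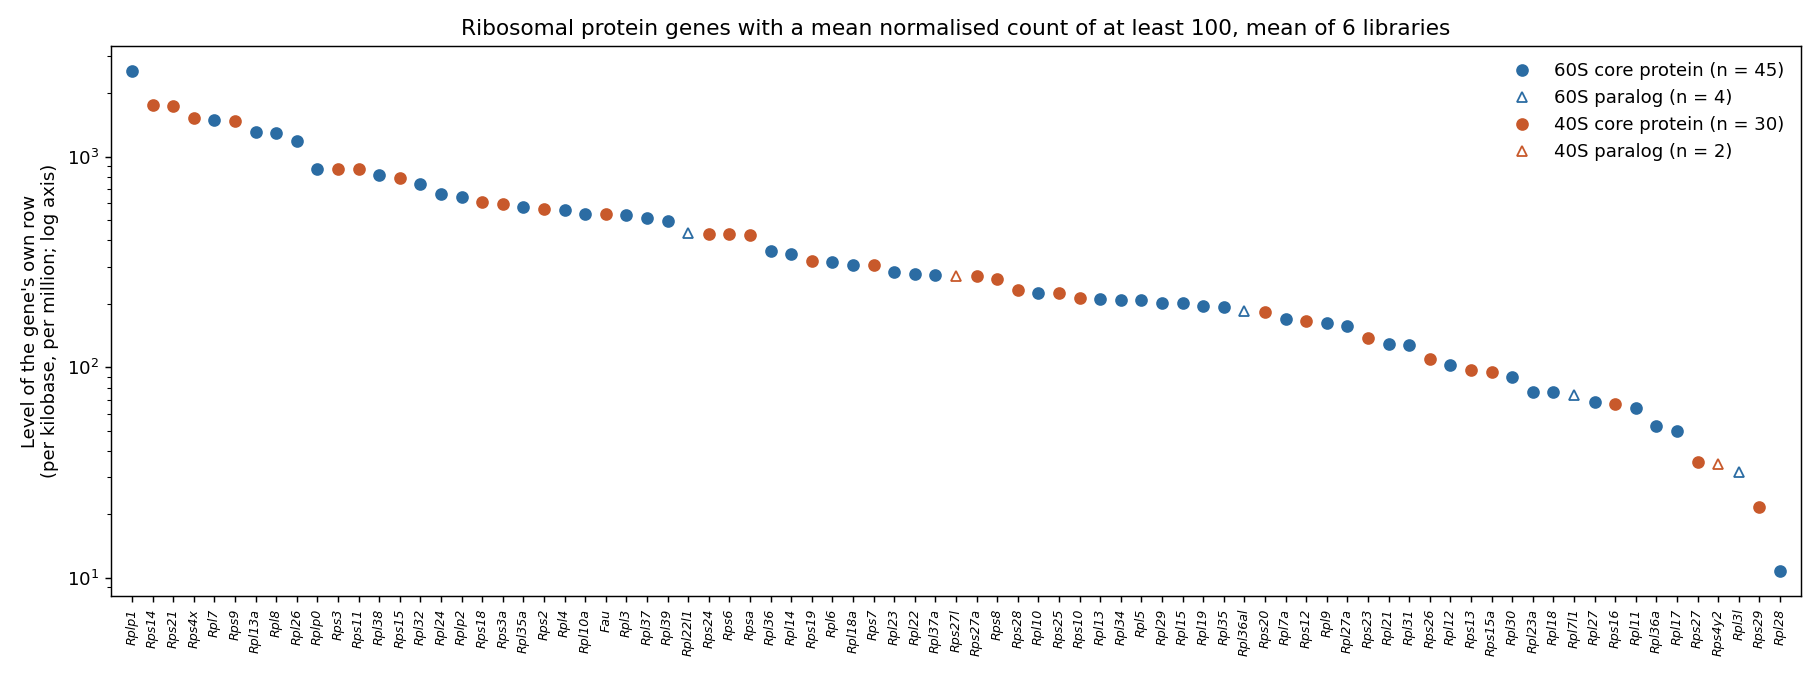
Level of the ribosomal protein genes drawn (vertical, per kilobase, scaled as in the text, log axis), from the authors' mean over 6 libraries, sorted from highest to lowest; filled circles are core genes and open triangles are paralogs. The core genes run from Rplp1 at 2553 to Rpl28 at 10.7 with both subunits mixed along the order.

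The sequence of most core genes, high and low, recurs in other genes of the annotation, and the table has rows for those genes. A copy was defined here as another gene, annotated as a pseudogene or with a symbol that ends in -ps and a number, marks a retrogene or is only a Gm number, whose transcript shares at least 50 different stretches of 50 bases with the principal transcript of the member, on the same strand. By this definition the members had 597 copies in the annotation, of which 411 had a row in the table and 265 had a mean of at least 100. Of the 77 core genes 68 had a copy with a row. The 597 include 3 genes, Gm45713, Gm28037 and Gm49383, that overlap Rpl13a, Rpl24 and Rpl36al on the same strand; 0 of the 3 had a row, so they add nothing to the sums, but the own sequence given below counts their shared stretches as not own. Of the 411 copies with a row, 399 were annotated as pseudogenes and 12 as protein coding. These 411 rows held 3.85% of all mean normalised counts, which is more than the 1.99% in the rows of the ribosomal protein genes themselves. How reads that fit several rows were counted is not known. Sums over copies, here and below, may therefore hold the same read several times. Rows with a symbol ending in -ps and a number, 163 in all, held 1.40%.

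Rps29, a small zinc-binding protein of the 40S subunit, had the highest ratio of a copy to the gene's own row. Its row had a mean normalised count of 197. The processed pseudogene Gm14303 had a mean of 13341, 67.7 times as much. The whole length of Gm14303 is a copy of the coding sequence of Rps29, and its 171 bases differ from that sequence at 0 positions.

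Rps27, another zinc-binding protein of the 40S subunit, showed the same pattern with a protein-coding copy. Its gene, at chr3:90212522-90213651 (GRCm38, minus strand), had a mean of 287. The retrogene Rps27rt, named Gm9846 in the table, is a single exon at chr9:114982366-114982739 (minus strand) and had a mean of 16763, 58.4 times as much. The coding sequences of the pair are identical over 255 bases. A second copy, the processed pseudogene Gm17241 at chr15:99706562-99706813 (minus strand), had a mean of 3562 and differs from Rps27 over 252 bases at 2 positions, T31G and G60A, counted from the first base of the start codon. The paralog Rps27l, at chr9:66946086-66949516 (plus strand), is a separate gene. It differs from Rps27 at 61 of 255 coding bases, of which 53 are at codon position 3, and shares 0 stretches of 50 bases with it. Its mean was 3175. The sequences are shown to set apart genes that a short read can tell from Rps27 and genes that it cannot, with capitals at the bases that differ from Rps27.
Rps27 and Rps27rt: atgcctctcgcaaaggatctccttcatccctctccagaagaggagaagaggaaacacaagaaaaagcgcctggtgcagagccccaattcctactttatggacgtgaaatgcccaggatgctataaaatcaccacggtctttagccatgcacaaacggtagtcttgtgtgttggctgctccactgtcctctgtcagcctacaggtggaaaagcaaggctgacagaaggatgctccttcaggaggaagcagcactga
Gm17241: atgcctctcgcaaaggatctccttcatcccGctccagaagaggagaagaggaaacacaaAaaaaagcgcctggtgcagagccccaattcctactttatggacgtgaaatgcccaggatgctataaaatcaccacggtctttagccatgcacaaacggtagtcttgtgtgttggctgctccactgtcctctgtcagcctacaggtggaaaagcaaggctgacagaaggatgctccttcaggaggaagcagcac
Rps27l: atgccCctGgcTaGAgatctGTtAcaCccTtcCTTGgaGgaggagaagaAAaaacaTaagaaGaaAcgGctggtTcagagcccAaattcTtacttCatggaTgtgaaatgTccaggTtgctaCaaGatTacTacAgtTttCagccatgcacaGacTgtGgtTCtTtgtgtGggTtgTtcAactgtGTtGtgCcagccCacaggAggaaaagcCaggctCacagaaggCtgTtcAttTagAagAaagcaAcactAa

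Copies above the gene's own row were found in much of the set, but at smaller ratios than for Rps29 and Rps27. For 49 of the 77 core genes the copies together had a higher mean normalised count than the gene itself, and for 42 a single copy did. The median share of the gene's own row in the sum of the row and its copies was 37.5%, with under 10% for 17 core genes and over 90% for 14. Rpl9, a protein near the base of the stalk, had a mean of 2796 in its own row and 37061 in the row of Rpl9-ps6. Rps12 had a mean of 2261, against 30302 for Rps12-ps3. Rpl5, which carries the 5S ribosomal RNA, had 9983, against 38500 for the pseudogene Gm15500. Rpl28, the lowest gene, had 278, against 5383 for Rpl28-ps1. For 5 of the 54 core genes with 2 or more copy rows of at least 100, the highest pair of copies was within 5% of each other; the nearest pair was Rpl27-ps3 and Gm11518, copies of Rpl27, with means of 11031.5 and 11030.4.

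**Figure D2:**
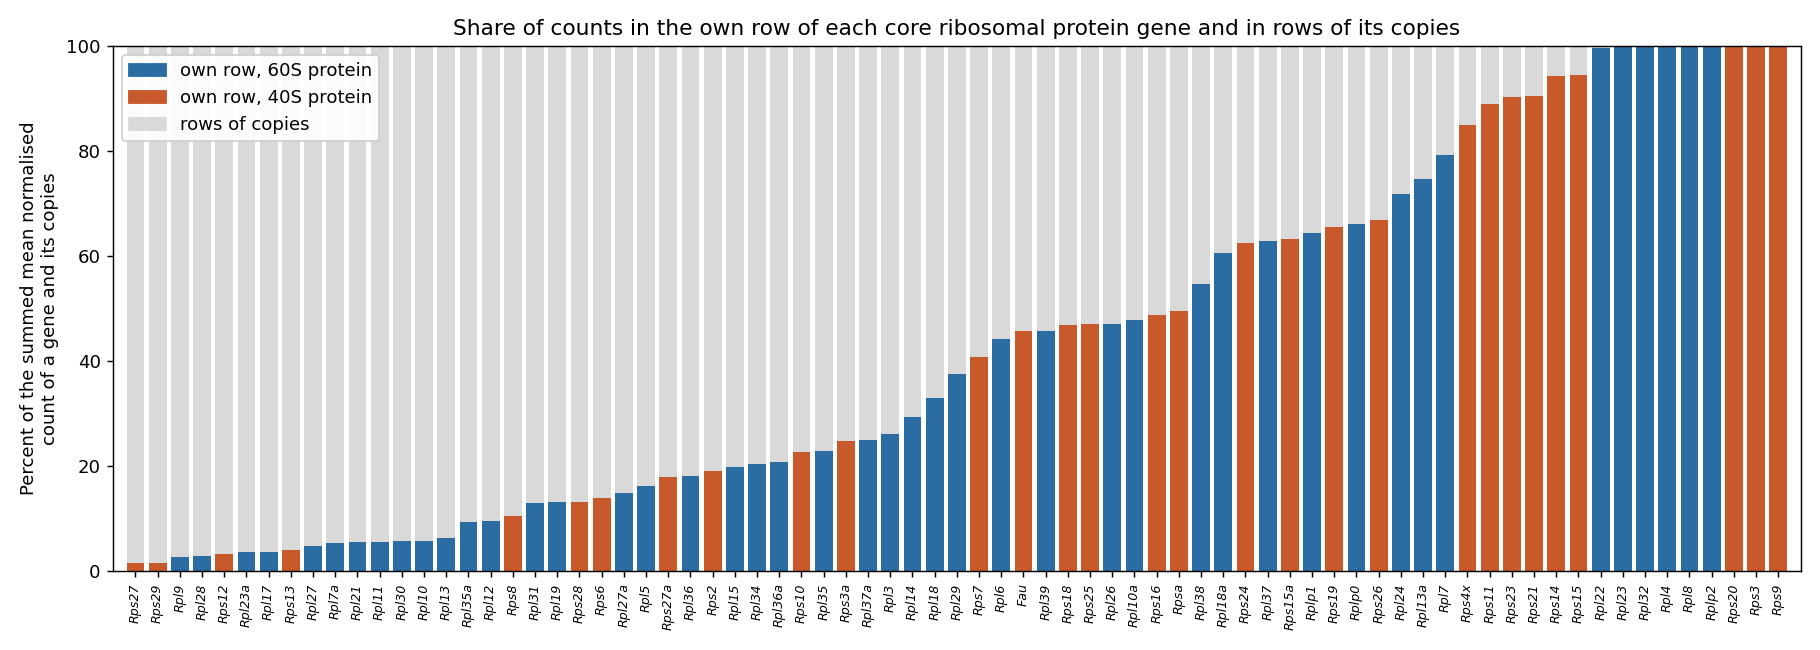
Percent of the summed mean normalised count (vertical) that lay in the own row of the core genes drawn, in colour, and in the rows of its copies, in grey; genes are sorted by the share of their own row. Rps27 and Rps29 held under 2% in their own rows, and the genes at the right end, from Rpl22 on, had no copy row at 100 or above.

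Of the 8 lowest core genes, 6 held at most 5.42% of the summed count in their own row, namely Rps27 (1.39%), Rps29 (1.46%), Rpl28 (2.80%), Rpl17 (3.60%), Rpl27 (4.72%) and Rpl11 (5.42%), while Rpl36a held 20.7% and Rps16 48.8%. The 10 highest core genes held from 47.1% (Rpl26) to 100% (for example Rps9 and Rpl8). The share contains the row itself, so a low row and a low share are linked by arithmetic and the figures are given as a description. A measure that uses no counts is the share of a gene's 50-base stretches that occur in no other gene, its own sequence. Over core genes it ran from 1.35% for Rps27 to 100%, with a median of 55.2%, and 33 of the 77 had under 50%. The other low core genes named above had 14.5% (Rpl36a), 37.8% (Rpl11), 47.0% (Rpl27), 55.3% (Rpl17), 59.9% (Rps16), 64.2% (Rps29) and 65.5% (Rpl28). In the 26 genes with the least own sequence (up to 40.0%) the median level of the own rows was 244. It was 271 in the 25 genes in the middle and 369 in the 26 genes with the most (64.2% and above). With the copies added, the order turned, with medians of 2283, 1106 and 846. Transcript length moved with the level in the same way, with a Spearman's rho over the 77 genes of -0.05 for own rows and -0.40 with copies, and its part in the turned order was not tested. The coefficient was 0.12 between own sequence and the level of the own row, and -0.55 between own sequence and the level of the row with its copies. For the number of copy rows it was -0.40 with the level of the own row and 0.40 with the level of the row and its copies. These coefficients are across genes of the same pooled libraries, and genes are not independent replicates. Own sequence and the copies were both found from shared 50-base stretches. The coefficient of -0.55 and the turned order are therefore linked in part by definition, and are given as a description. The last coefficient, 0.40, contains the copies on both sides.

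Adding the copies brought the core genes closer together. The row plus all copies had a median level of 1175 and ran from 138 (Rps16) to 6260 (Rpl9), a ratio of 45.5. The row plus only its highest copy had a median level of 894 and ran from 131 (Rps16) to 3359 (Rplp1), a ratio of 25.6. The SD of the log2 level over core genes was 1.56 for own rows, 1.24 with all copies and 1.06 with the highest copy. The number of core genes within 2-fold of the median was 36, 47 and 54 in that order. Summing rows can narrow a spread by itself, and how much of the change it accounts for was not tested. Both sums are divided by the length of the core gene's transcript. A read that fits several copies may have been counted for 1 of them, shared between them or counted in full for each. In the last case the sums hold the same read several times. Which of these was done, and which locus was transcribed, cannot be told from the pooled means.

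The 10 core genes with no copy row of at least 100 held 99.97% of the summed count in their own rows. They included Rps20 (level 184), Rpl22 (278), Rpl23 (283), Rpl4 (561), Rplp2 (644), Rpl32 (744), Rps3 (877), Rpl8 (1297) and Rps9 (1484). Their median level was 694 and their range spanned a ratio of 8.08. Some of these genes have an annotated copy without a row, such as Gm9794, which shares 324 stretches with Rpl23. The effect of such copies on the counts was not tested. The other 67 core genes had a median level of 231 in their own rows, and 1298 with the copies added.

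In other sets of genes a larger share of the counts lay in the own rows. The rows of the 75 mitochondrial ribosomal protein genes held 94.1% of the summed count of these genes and their copies, found in the same way. The share was 94.5% for 34 proteasome subunits, 89.7% for 77 respiratory chain subunits and 93.1% for 55 initiation factors, against 33.5% for the 77 core ribosomal protein genes. The SD of the log2 level of own rows was 1.30 for mitochondrial ribosomal proteins, 1.21 for the proteasome and 1.36 for the respiratory chain, compared with 1.56 for the core ribosomal proteins. It was higher for the initiation factors (2.13), the 6 elongation factors (2.87) and 10 other genes with TOP mRNAs (2.57). The median level of mitochondrial ribosomal proteins was 41.1, that of the proteasome 139 and that of the respiratory chain 249, so the core ribosomal proteins (278) stood close to the respiratory chain by their own rows and above it with the copies (1175 against 318). The 20 factors that assemble ribosomes, such as Fbl, Ncl and Npm1, had a median level of 16.1. Among elongation factors Eef1a1, which brings aminoacyl-tRNA to the ribosome, was at 4539 and Eef2, which drives translocation, at 842.

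**Figure D3:**
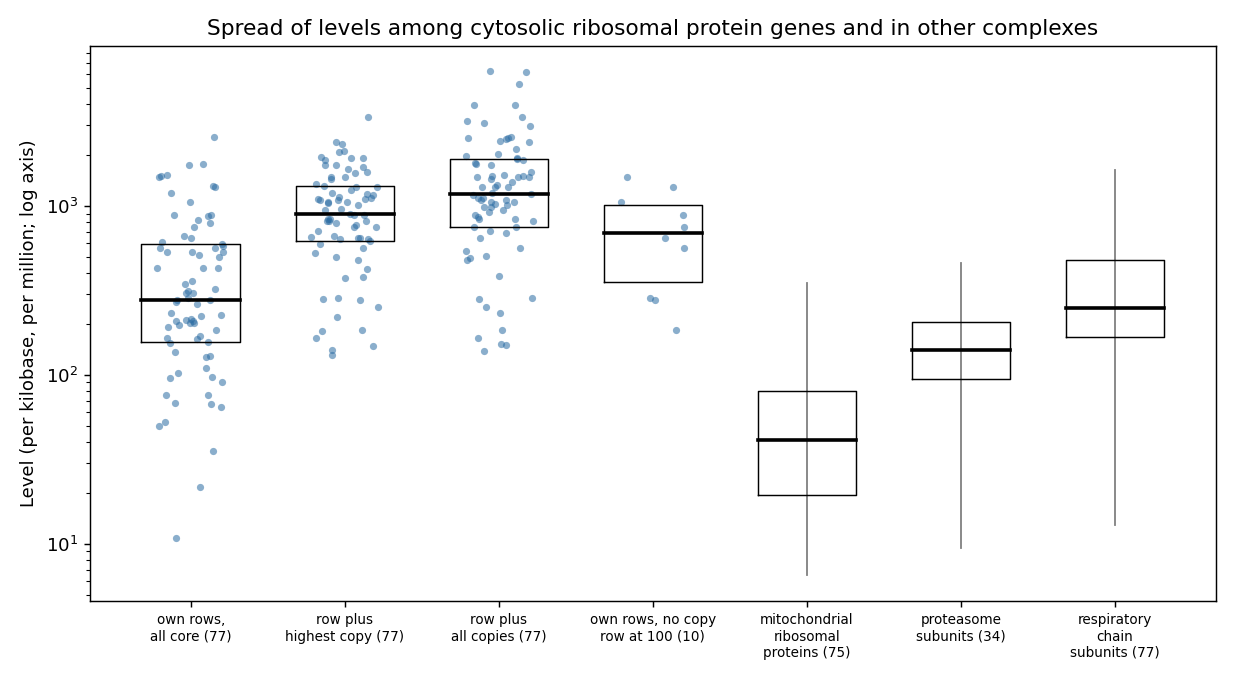
Levels (vertical, per kilobase, scaled as in the text, log axis) of core ribosomal protein genes by own row, with the highest copy added, with all copies added, and for the 10 genes without a copy row of at least 100 (points are genes), beside 3 other sets of subunits by own row. Thick lines are medians, boxes are quartiles and thin lines run from the lowest to the highest gene; the core medians are 278, 894, 1175 and 694 from left to right.

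By their own rows, proteins with a shared role were at different levels. The stalk, which recruits translation factors, consists of Rplp0 with pairs of Rplp1 and Rplp2. Their levels were 878, 2553 and 644, and 1329, 3967 and 644 with copies. Among genes fused to a ubiquitin or ubiquitin-like sequence, Fau had a level of 532 and Rps27a 271, and with copies they were nearer, at 1164 and 1519. Rack1, a signalling protein on the 40S subunit that is named Gnb2l1 in the table and lies outside the symbol rule, had a level of 949 and no copy row. The proteins that bind Mdm2 and so link ribosome assembly to p53 were at 209 for Rpl5, 64.1 for Rpl11 and 283 for Rpl23. With copies Rpl5 and Rpl11 were at 1298 and 1183, whereas Rpl23 has no copy with a row.

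Diamond-Blackfan anemia is a failure of red cell production caused by changes in genes of both subunits. A list of 8 such genes, which is not complete and leaves out Rpl5 and Rpl11, ranged over 10.8-fold by own rows. Rps26 was at 110, Rps10 at 213, Rps7 at 305, Rps19 at 320, Rps24 at 431, Rpl35a at 576 and Rpl26 at 1191. The median of the 8 genes was 313. With copies the order was different, and Rpl35a, which has 13 copies with a row, came out highest at 6191 and Rps26 lowest at 165. The 4 X-linked core genes ranged from 52.4 (Rpl36a) through 226 (Rpl10) and 497 (Rpl39) to 1527 (Rps4x). The copies of 3 of these genes held more counts than the gene, and the exception was Rps4x, with 85.0% in its own row.

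The paralogs were compared with the core genes they resemble. Rpl3l, a form of Rpl3 known from heart and skeletal muscle, had a level of 31.6, against 531 for Rpl3. The muscle genes Acta1, Ckm and Myh4 had levels of 1198, 548 and 348 in the same libraries, and their part in the level of Rpl3l was not tested. Rpl7l1 had a level of 73.9, against 1496 for Rpl7. Rps4y2, which current annotation names Rps4l, had a level of 34.8, against 1527 for Rps4x. Rpl39l, known from male germ cells, was at 3.35, against 497 for Rpl39, and Rpl10l, a retrogene also known from male germ cells, was listed at 0 beside 226 for Rpl10. In these 5 pairs the core gene was higher, by own rows and with copies.

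In the other 3 pairs the paralog was higher by own rows. Rpl22l1 had a level of 435, against 278 for Rpl22, a difference of 0.65 on the log2 scale; measured over coding length alone the difference turned to -1.18. The Rpl22 transcript is 2051 bases long, of which 387 are coding. Rpl36al had a level of 184, against 52.4 for Rpl36a, and with copies the genes were level, at 248 and 253. Rps27l had a level of 272, against 35.6 for Rps27, a log2 difference of 2.94. With copies, Rps27 was at 2555 and Rps27l, which has no copy, was at 272, a log2 difference of -3.23. The order of the last 2 pairs therefore depended on the rows that were counted. None of the 8 paralogs shared a stretch of 50 bases with its core gene. Coding sequences were identical at 59.9% of aligned bases for Rpl7 and Rpl7l1, 70.2% for Rpl22 and Rpl22l1, 74.4% for Rpl3 and Rpl3l, 76.1% for Rps27 and Rps27l, 84.8% for Rpl10 and Rpl10l, 85.3% for Rpl39 and Rpl39l and 87.9% for Rpl36a and Rpl36al. Rps4y2 has no annotated coding sequence and was left out.

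**Figure D4:**
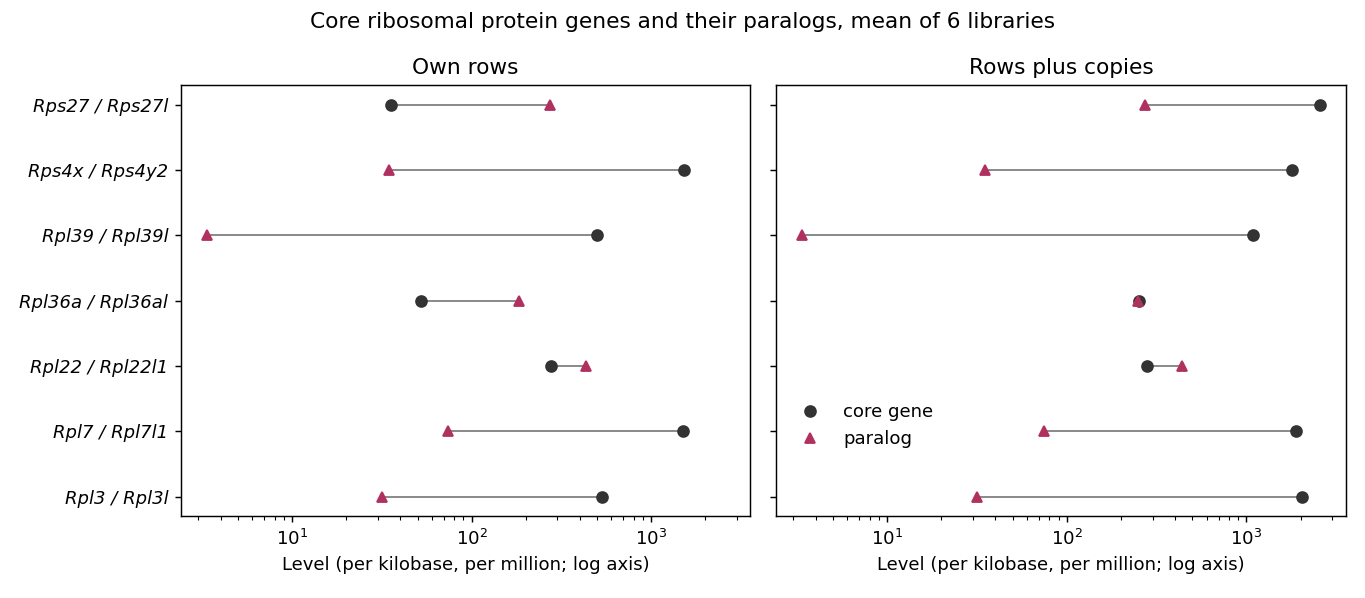
Levels (horizontal, per kilobase, scaled as in the text, log axis) of core genes (circles) and their paralogs (triangles) by own rows on the left and with copies added on the right; Rpl10l, listed at 0, is not drawn. Rps27l lies above Rps27 by own rows (272 against 35.6) and below it with copies (272 against 2555).

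The start sites of the genes were read for letters of the TOP motif. RefSeq promoter sequences (GRCm38.p6) were given for 64 of the 85 members. The sequences searched were CTTTT and CTTTC and also CTTCC and CCTTT, read on the strand of the gene only, since the motif acts in the RNA. A longer run of pyrimidines can hold several of them in overlap. Within 10 bases on each side of the annotated start, 19 of 57 core genes (33.3%) held at least 1 of them, compared with 2889 of 27025 genes in all (10.7%). Within 25 bases the shares were 54.4% and 25.4%. CTTTC alone was within 10 bases in 17.5% of core genes and 2.91% of all genes. A match is a description of the letters and not a functional site. As examples, windows of 25 bases before and 25 from the start onward are shown for 3 core genes that hold the letters within 10 bases and for Rps27l, whose 2 entries do not hold them within 10 bases (the first is shown), with the letters found within 10 bases in capitals.
Rps27, chr3:90213624-90213673, minus strand: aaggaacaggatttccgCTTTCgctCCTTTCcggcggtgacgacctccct
Rplp2, chr7:141447626-141447675, plus strand: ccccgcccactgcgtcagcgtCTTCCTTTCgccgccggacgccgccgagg
Rpl38, chr11:114668555-114668604, plus strand: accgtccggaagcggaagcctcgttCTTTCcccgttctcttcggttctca
Rps27l, chr9:66946061-66946110, plus strand: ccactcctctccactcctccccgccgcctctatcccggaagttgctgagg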

How the data were processed

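Poly(A) RNA of RPE/choroid from 3 young and 3 aged mice was sequenced (the extraction text of the labels also describes removal of ribosomal RNA). The authors trimmed reads with BBDuk, aligned them with STAR to GRCm38 transcripts, quantified them with Sailfish and used DESeq2. The deposited value used here is a signal, the authors' mean normalised count per gene over the 6 libraries, pooled. Among its rows, 576 genes with means above 0 and under 0.2 take 6 different values, from 0.157 to 0.174. Values divided by length and then rounded to whole numbers could give the same pattern. It therefore does not tell whether the means were divided by length. The depth of single libraries is unknown. The other deposited columns hold the authors' young and aged comparison, namely a fold change on the log2 scale with its error, the test statistic, and p-values before and after adjustment, and were not used, so there is no test here.

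Genes were matched by symbol to GENCODE M21 (GRCm38), which placed 30971 of 33924 rows (91.3%) with 98.7% of counts, and 83 members by name and 2 by an older symbol. Length was that of the APPRIS principal transcript, the longest if several. Copies were found by shared 50-base stretches, counted from the annotated transcripts, each copy being given to the member with the most; the search was tested on simulated data. Named genes are the 10 highest and 10 lowest members with a mean of at least 100, the paralog pairs, the role groups described and the genes nearest the minimum of 100; the copies, Rps29 and Rps27 as examples, Rpl9, Rps12, Rps15a and the start windows were chosen after the values were seen. The definition of a copy was also set after the values were seen, and retrogenes were added to it later, once Rps27rt had been found to be missed. A few members enter the counts and medians but are not reported by name here. Members and lists were chosen with earlier results of these data known. Python 3.11.15, numpy 2.4.6, pandas 2.3.3, Biopython 1.88 and matplotlib 3.10.9 were used.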

Additional observations from a re-analysis of the deposited data

How the results depend on the processing

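Each gene had 1 pooled mean, so no library could be left out. No paired analysis was possible because only means over all libraries were used and no result comes from a test. The median core level of 278 was 284 over coding length, 275 over length less 100 bases, 244 over the longest transcript of any type, 263 over the median transcript, 894 with the highest copy and 1175 with all copies. The log2 SD of 1.56 was 1.52 over coding length, 1.71 over the longest transcript, 1.63 over the median transcript, 1.62 among genes with at least 50% own sequence, 1.38 with a minimum mean of 500, 1.06 with the highest copy and 1.24 with all copies; this last SD was 1.44 with at least 200 shared stretches and 1.25 with stretches of 100 bases. The share of counts of 1.99% was 3.38% with -ps rows and 5.83% with all copies. The 49 core genes below their copies numbered 42 with at least 200 shared stretches and 47 with stretches of 100 bases. The pairs with the higher paralog fell from 3 to 1 with copies, where Rpl36al over Rpl36a turned to -0.030 and Rps27l over Rps27 to -3.23 on the log2 scale; over coding length Rpl22l1 over Rpl22 turned to -1.18. The share of core genes with start letters was 54.4% within 25 bases. The alternatives with copies and with GENCODE coding length were added after the data were seen. Coding length from RefSeq proteins and protein identity were not run. The share of counts with proteins outside the symbol rule added is not reported here.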

Other observations

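Some genes share sequence with a ribosomal protein gene but were not counted as copies, since they carry gene names of their own. BC004004 shares 265 stretches of 50 bases with Rpl21 and had a mean normalised count of 7119, above the 5585 of Rpl21. Wdr89 shares 281 stretches with Rplp2 and had a mean of 228. Which part of these counts came from ribosomal protein RNA was not tested.

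Of other mRNAs known to carry a TOP motif, Tpt1 and Hnrnpa1 had rows that held 31.0% and 10.9% of the count of the gene and its copies. Eef1a1 held 80.5%, Npm1 67.3%, Nap1l1 71.3%, Eif3e 94.0% and Eef2 99.7%, and Eif3f and Eif3h had 100%. The list of 10 such genes held 72.8% in its own rows, between the 33.5% of the core ribosomal proteins and the 93.1% of the initiation factors.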
